A study of Mus musculus with 3 samples.

Results

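The cells described here are 210 thymic regulatory T cells (Tregs) without surface CD73, out of 12208 cells in all. They are the cells whose hashtag class is Treg and whose cluster in the deposited annotation is number 3. This rule takes the sort and a clustering of expression and names no T cell receptor (TCR) value. The cells were nonetheless chosen with earlier results of these data known. Whether TCR genes entered the clustering was not checked. The hashtag class is named only Treg and was read as CD73- Treg, since the remaining classes name the other 5 sorted populations. The 210 cells were 46.3% of the 454 CD73- Treg cells (exact 95% interval 41.6 to 51.0). They are set here beside 1045 CD73+ Treg cells of cluster 3 and 244 CD73- Treg cells of the other clusters, of which 103 were in cluster 0.

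All cells came from 1 pool of thymi of 8 female mice aged 7 to 12 weeks. On the C57BL/6 background (spelled C56Bl/6 in the labels) the mice of every group carried the Tcliβ transgene, which fixes the TCR β chain, the TCRα+/- genotype, which leaves 1 intact α allele, and the Foxp3-GFP reporter. Sorting on surface Vα2, which TRAV14 genes encode, was applied to every population, and CD8+ cells had been depleted for all populations but the CD4+CD8+ one (DP). The other populations were CD4 single-positive cells (CD4 SP), CD25+ and Foxp3lo Treg progenitors (TRP), and CD73+ Treg. Each had its own hashtag, and RNA, hashtag and TCRα libraries were made from the same cells. The labels do not say which mouse a cell came from, so there was no replicate spread and no test between groups. Shares are given with exact Clopper-Pearson 95% intervals. These allow for counting error alone and treat cells of 1 clone as if they were independent, which they are not.

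A TCR α chain is made in the DP thymocyte by joining a TRAV to a TRAJ segment, with bases removed and added where they meet. The join encodes the third complementarity-determining region (CDR3), the part of the chain that most directly contacts the peptide. TRAJ segments lie in a row before the constant gene, and repeated rounds of joining on 1 allele use segments ever closer to it, of which TRAJ7 and TRAJ4 are among the nearest. Thymic Tregs arise from CD25+ and Foxp3lo progenitors, express the transcription factor Foxp3 and restrain immune responses, and CD73 is an ecto-enzyme that turns AMP into adenosine. In the thymus, CD73 is used to tell recently made Tregs from older or returning ones. With a fixed β chain, cells of different specificity differ mostly in the α chain.

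Cluster 3 held cells of the sorted Treg and late progenitor gates. Of its 1340 cells, 210 were CD73- Treg (15.7%, 13.8 to 17.7), 1045 were CD73+ Treg (78.0%), 73 were Foxp3lo TRP (5.45%) and 12 were CD25+ TRP (0.896%). No DP or CD4 SP cell was in it, and 0 of 1340 cells allows a share of up to 0.275% for either. The expression rows as used here carry no gene name, so Foxp3, Nt5e (which encodes CD73) and markers of other cell types were not checked, and the sort label stands as deposited.

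Depth was close in the sets compared. The median was 2534 unique molecular identifiers (UMIs) per cell in CD73- Treg of cluster 3 (quartiles 2049 and 3257.5), 2730 in CD73+ Treg of cluster 3 (2186 and 3473) and 2594 in CD73- Treg of other clusters (2039.25 and 3505.75). Median detected genes were 1134 in CD73- Treg of cluster 3, 1167 in CD73+ Treg of cluster 3 and 1164.5 in CD73- Treg of other clusters. At 1000 UMIs per cell, the expected median was 575 genes in CD73- Treg of cluster 3 (4 shallower cells left out), 559 in CD73+ Treg of cluster 3 (4 left out) and 576 in CD73- Treg of other clusters (3 left out). The small gap to CD73+ cells in detected genes thus had the opposite sign at equal depth.

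A productive α chain was assembled for fewer than 1 cell in 2 of the CD73- Treg of cluster 3. The share was 44.8% (94 of 210, 37.9 to 51.8), against 37.0% of CD73+ Treg of cluster 3 (387 of 1045, 34.10 to 40.04) and 57.4% of CD73- Treg of other clusters (140 of 244, 50.9 to 63.7). Its interval overlapped with both of the others. Among Foxp3lo TRP of cluster 3, the share was 57.5% (42 of 73, 45.4 to 69.0).

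**Figure D1:**
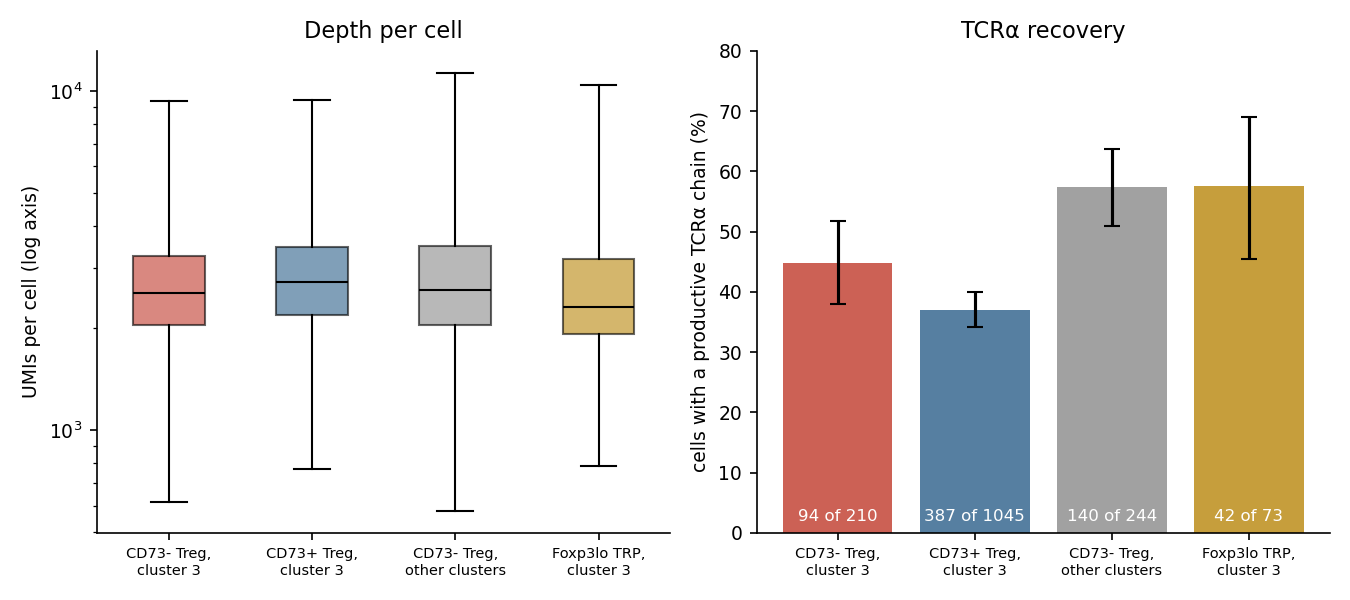
Left, UMIs per cell on a log axis, with boxes for the quartiles, a line at the median and whiskers to the lowest and highest cell. Right, the share of cells with a productive TCRα chain, with exact 95% intervals. The median is 2534 UMIs in CD73- Treg of cluster 3, 2730 in CD73+ Treg of cluster 3 and 2312 in Foxp3lo TRP of cluster 3. Recovery is 44.8% in CD73- Treg of cluster 3, between the 37.0% of CD73+ Treg of cluster 3 and the 57.4% of CD73- Treg of other clusters.

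The same order held on both sides of a depth of 2534 UMIs. Below it, a chain was found in 39.0% of CD73- Treg of cluster 3 (41 of 105, 29.7 to 49.1), 26.9% of CD73+ Treg of cluster 3 (113 of 420, 22.7 to 31.4) and 47.0% of CD73- Treg of other clusters (55 of 117, 37.7 to 56.5). At or above it, the shares were 50.5% (53 of 105, 40.5 to 60.4) in CD73- Treg of cluster 3, 43.8% (274 of 625, 39.9 to 47.8) in CD73+ Treg of cluster 3 and 66.9% (85 of 127, 58.03 to 75.02) in CD73- Treg of other clusters. The chains that were found rested on similar numbers of molecules, a median of 17 contig UMIs in CD73- Treg of cluster 3, 18 in CD73+ Treg of cluster 3 and 17 in CD73- Treg of other clusters. The lowest was 5 in CD73- Treg of cluster 3. A β contig was found in 6.19% of CD73- Treg of cluster 3 (13 cells, 3.34 to 10.4), 9.57% of CD73+ Treg of cluster 3 and 11.5% of CD73- Treg of other clusters, from a library enriched for α.

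In a mouse with 1 intact α allele, a cell is limited to 1 productive α chain, but 8 of the CD73- Treg of cluster 3 held 2 (3.81%, 1.66 to 7.37). The share was 1.82% in CD73+ Treg of cluster 3 (19 cells, 1.10 to 2.82) and 1.23% in CD73- Treg of other clusters (3 cells). The 8 cells had a median of 6293.5 UMIs, against 2709.5 in the 86 cells with 1 chain and 2431 in the 116 with none. CD73+ Treg of cluster 3 with 2 chains likewise had a median of 6587 UMIs, against 2929 in those with 1. Whether these barcodes hold 2 cells was not tested. All repertoire values below use cells with exactly 1 productive chain, 86 in CD73- Treg of cluster 3, 368 in CD73+ Treg of cluster 3 and 137 in CD73- Treg of other clusters.

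TRAJ23 was the segment most used by the CD73- Treg of cluster 3, followed by TRAJ4, TRAJ15, TRAJ22 and TRAJ13. TRAJ23 was in 12 of 86 cells (14.0%, 7.42 to 23.1), against 10.9% of CD73+ Treg of cluster 3 (7.88 to 14.5) and 7.30% of CD73- Treg of other clusters. TRAJ15 was carried by 6 cells (6.98%), against 5.71% of CD73+ Treg of cluster 3 and 5.84% of CD73- Treg of other clusters. TRAJ22 was also carried by 6 cells (6.98%), against 8.97% of CD73+ Treg of cluster 3 and 6.57% of CD73- Treg of other clusters. TRAJ13 was carried by 5 cells (5.81%), against 4.89% of CD73+ Treg of cluster 3 and 5.84% of CD73- Treg of other clusters. None of these shares could be told from its counterparts at this depth. In all, the 86 cells used 27 of the 43 TRAJ segments seen in the series. Segments numbered 40 or above, which lie on the TRAV side of the row, were used by 8.14% of CD73- Treg of cluster 3 (7 cells, 3.34 to 16.1), 12.8% of CD73+ Treg of cluster 3 (9.54 to 16.6) and 11.7% of CD73- Treg of other clusters (6.82 to 18.3).

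TRAJ4 was used by 8 of 86 CD73- Treg cells of cluster 3 (9.30%, 4.10 to 17.5), 18 of 368 CD73+ Treg cells of cluster 3 (4.89%, 2.92 to 7.62) and 14 of 137 CD73- Treg cells of other clusters (10.2%, 5.70 to 16.6). The share in CD73- Treg of cluster 3 was near that of the other CD73- Treg cells and above that of the CD73+ cells, with intervals that overlap. It was also near the 10.5% of Foxp3lo TRP of cluster 3 (4 of 38, 2.94 to 24.8), so it was not particular to CD73- Treg. The TRAJ4 share was 4.18% over all cells, 5.60% in Foxp3lo TRP, 3.53% in CD25+ TRP, 3.62% in CD4 SP and 4.03% in DP. TRAJ4 lies at chr14:54216291-54216353 (GRCm38, plus strand), before the constant gene TRAC at chr14:54220521-54224206. The 8 cells carried 8 different CDR3 amino acid sequences on 4 TRAV genes. Their CDR3 sequences are shown because the joins differ from cell to cell while the TRAJ4 end is shared. They run 5′ to 3′, and capitals mark bases that match neither the germline end of the TRAV gene nor the germline start of the TRAJ segment. Each is named by its amino acid sequence, where it is under 15 residues long, and its TRAV gene.
The longest join, TRAV14D-3-DV8: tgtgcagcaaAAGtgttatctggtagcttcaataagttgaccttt
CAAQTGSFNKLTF, TRAV14N-3: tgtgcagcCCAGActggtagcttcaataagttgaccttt
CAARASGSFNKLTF, TRAV14N-1: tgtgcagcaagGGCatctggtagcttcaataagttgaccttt
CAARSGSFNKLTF, TRAV14N-1: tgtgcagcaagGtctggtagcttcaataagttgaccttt
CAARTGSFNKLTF, TRAV14N-1: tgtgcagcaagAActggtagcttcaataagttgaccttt
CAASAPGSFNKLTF, TRAV14N-3: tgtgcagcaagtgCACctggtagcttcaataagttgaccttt
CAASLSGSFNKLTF, TRAV14N-1: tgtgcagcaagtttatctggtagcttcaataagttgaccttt
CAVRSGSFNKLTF, TRAV14N-2: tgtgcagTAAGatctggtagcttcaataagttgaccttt
Between 0 and 5 bases of each join came from neither germline end. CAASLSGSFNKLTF was the join with 0 such bases, and its amino acid sequence was found in 18 other cells of the series. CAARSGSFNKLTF was found in 7 other cells, and the longest CDR3, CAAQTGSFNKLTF and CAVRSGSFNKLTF in no other cell of the series. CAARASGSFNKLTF was the one TRAJ4 join of which the identical nucleotide sequence and TRAV gene also occurred in CD73+ Treg of cluster 3, in 1 cell.

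TRAJ7 showed the widest gap between the 2 Treg populations of cluster 3. It was found in 4 of 86 CD73- Treg cells of cluster 3 (4.65%, 1.28 to 11.5), 69 of 368 CD73+ Treg cells of cluster 3 (18.8%, 14.9 to 23.1) and 10 of 137 CD73- Treg cells of other clusters (7.30%, 3.56 to 13.0). The share was 4.37% over all cells, 4.49% in CD25+ TRP, 2.36% in Foxp3lo TRP, 1.41% in CD4 SP and 1.97% in DP. Among CD73+ Treg it was 15.2% in clusters other than 3 and 9 and 1.28% in cluster 9. Of the 43 TRAJ segments, TRAJ7 was the 1 whose interval in CD73- Treg of cluster 3 did not meet that in CD73+ Treg of cluster 3, and none stood apart from CD73- Treg of other clusters. TRAJ7 lies at chr14:54211470-54211528 (GRCm38, plus strand). All 4 TRAJ7 chains of the CD73- Treg of cluster 3 used TRAV14D-3-DV8 (chr14:53078452-53079045) and had the form CAAS, 1 variable residue, then DYSNNRLTL. They are shown with the 2 most frequent joins of each member of the TRAJ7 pair in CD73+ Treg of cluster 3, named CD73+, because the capitals show how few bases separate them. The pair is the 2 CDR3 most frequent among TRAJ7 chains over all cells of the series. Of the pair, CAASADYSNNRLTL has the form above and CAASAGYSNNRLTL does not.
CD73-, CAASADYSNNRLTL, first cell: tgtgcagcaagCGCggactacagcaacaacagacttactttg
CD73-, CAASADYSNNRLTL, second cell: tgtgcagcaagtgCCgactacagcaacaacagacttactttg
CD73-, CAASLDYSNNRLTL: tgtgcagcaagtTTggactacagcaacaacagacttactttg
CD73-, CAASSDYSNNRLTL: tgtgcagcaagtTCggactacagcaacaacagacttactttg
CD73+, CAASADYSNNRLTL, 16 cells: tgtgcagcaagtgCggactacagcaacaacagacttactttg
CD73+, CAASADYSNNRLTL, 9 cells: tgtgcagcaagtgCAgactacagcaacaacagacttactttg
CD73+, CAASAGYSNNRLTL, 13 cells: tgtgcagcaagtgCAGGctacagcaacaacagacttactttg
CD73+, CAASAGYSNNRLTL, 8 cells: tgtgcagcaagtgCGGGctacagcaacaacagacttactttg
The chain of the second CAASADYSNNRLTL cell was also found, base for base, in 3 CD73+ Treg cells of cluster 3, and the other 3 joins in none of them. CAASLDYSNNRLTL occurred in 7 other cells of the series and CAASSDYSNNRLTL in 8. In the 368 CD73+ Treg cells of cluster 3 there were 0 of either, which allows up to 0.997%.

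The size of the TRAJ7 gap depended on whether cells or different joins were counted. The TRAJ7 pair CAASADYSNNRLTL and CAASAGYSNNRLTL made up 2 of 86 CD73- Treg cells of cluster 3 (2.33%), 67 of 368 CD73+ Treg cells of cluster 3 (18.2%) and 8 of 137 CD73- Treg cells of other clusters (5.84%). Of the 204 cells of the series with the pair, 67 were CD73+ Treg of cluster 3 and 65 were CD73+ Treg of other clusters. The pair was chosen by its frequency in these same cells, so the choice itself favours the CD73+ sets. CAASADYSNNRLTL was in 2 CD73- Treg cells of cluster 3, 31 CD73+ Treg cells of cluster 3 (8.42%) and 6 CD73- Treg cells of other clusters (4.38%). CAASAGYSNNRLTL was in 0 of 86 CD73- Treg cells of cluster 3, which allows up to 4.20%. It was in 36 CD73+ Treg cells of cluster 3 (9.78%) and in 2 CD73- Treg cells of other clusters (1.46%). When each different rearrangement, a nucleotide CDR3 with its TRAV and TRAJ gene, was counted once, TRAJ7 made up 4.76% of 84 in CD73- Treg of cluster 3, 5.07% of 276 in CD73+ Treg of cluster 3 and 5.56% of 126 in CD73- Treg of other clusters. Counted by cells the share was thus lower in CD73- Treg of cluster 3 than in CD73+ Treg of cluster 3, and counted by rearrangements the values lay within 1 percentage point. With each different CDR3 amino acid sequence counted once the order turned and the intervals overlapped, at 3.80% of 79 in CD73- Treg of cluster 3 (0.790 to 10.7), 1.79% of 223 in CD73+ Treg of cluster 3 (0.491 to 4.53) and 3.48% of 115 in CD73- Treg of other clusters. TRAJ4 made up 9.52% of different rearrangements in CD73- Treg of cluster 3, 6.16% in CD73+ Treg of cluster 3 and 11.1% in CD73- Treg of other clusters. Counting each rearrangement or CDR3 once removed more repeats from the 368 cells than from the 86, so these shares depend on set size. They were not computed at an equal number of cells. Neither the near-equal rearrangement shares nor the turned order could therefore be told from an effect of set size.

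**Figure D2:**
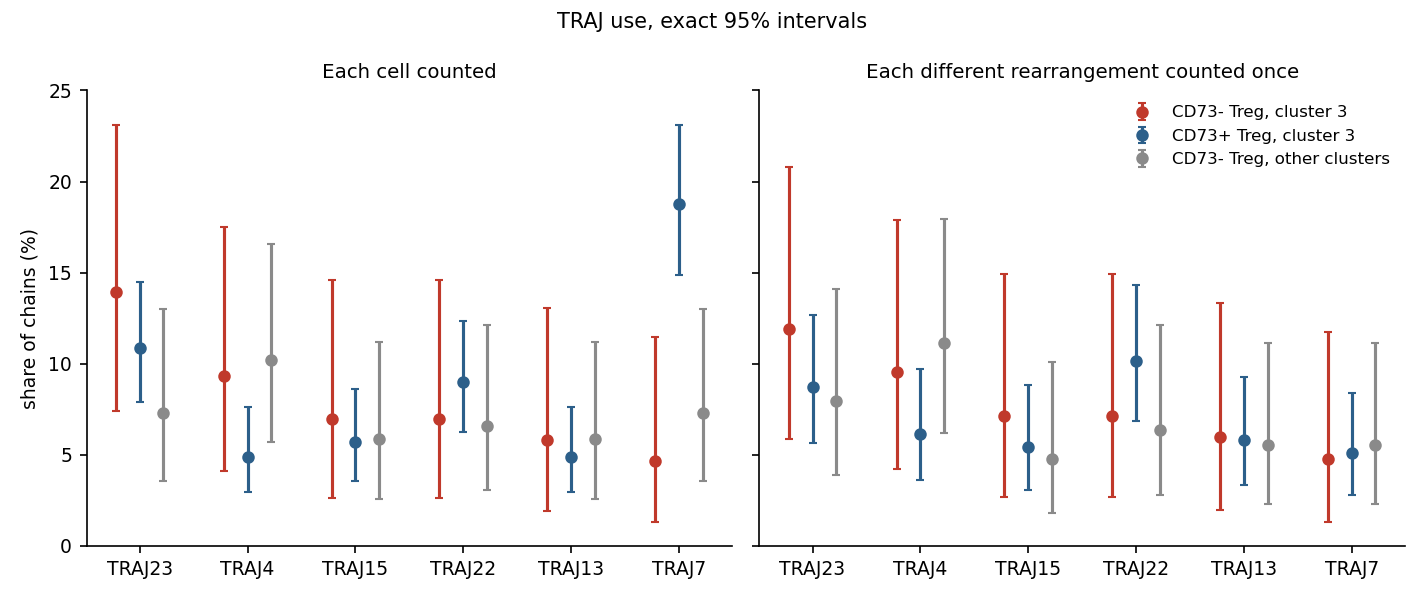
Share of chains using each of 6 TRAJ segments in CD73- Treg of cluster 3, CD73+ Treg of cluster 3 and CD73- Treg of other clusters, counted by cell (left) and with each different rearrangement once (right), with exact 95% intervals. By cell, TRAJ7 stands at 4.65% in CD73- Treg of cluster 3 and 18.8% in CD73+ Treg of cluster 3, and by rearrangement at 4.76% in CD73- Treg of cluster 3 and 5.07% in CD73+ Treg of cluster 3.

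All 86 chains used TRAV14 family genes, in 8 copies, as the sort on Vα2 sets. TRAV14D-3-DV8 was used by 25 cells (29.1%, 19.8 to 39.9), TRAV14-1 (chr14:53554022-53554558) by 21 (24.4%, 15.8 to 34.9) and TRAV14N-1 (chr14:53166626-53167178) by 17 (19.8%, 12.0 to 29.8). TRAV14D-3-DV8 was used by 32.3% of CD73+ Treg of cluster 3 and 28.5% of CD73- Treg of other clusters, TRAV14-1 by 20.9% of CD73+ Treg of cluster 3 and 16.8% of CD73- Treg of other clusters, and TRAV14N-1 by 14.1% of CD73+ Treg of cluster 3 and 21.9% of CD73- Treg of other clusters. Because the TRAV14 copies differ by few bases, which copy a chain used is uncertain, and the deposited assignment was kept. Chains outside the family numbered 0 in CD73- Treg of cluster 3, 2 in CD73+ Treg of cluster 3 and 4 in CD73- Treg of other clusters.

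Few receptors were repeated among the CD73- Treg of cluster 3. Their 86 cells held 79 different CDR3 amino acid sequences and 84 different rearrangements. The numbers expected in 86 cells were 62.8 CDR3 and 74.4 rearrangements for CD73+ Treg of cluster 3, and 75.7 CDR3 and 81.2 rearrangements for CD73- Treg of other clusters. Cells drawn to 86 from the other populations would hold 74.3 CDR3 in CD73+ Treg outside cluster 3, 74.7 in Foxp3lo TRP, 77.9 in CD25+ TRP, 73.9 in CD4 SP and 84.7 in DP. The value of 79 was above all but the DP value and 79.5 in CD73+ Treg of cluster 9. All cells of the series gave 78.9. These values have no spread, so small gaps, such as 79 against 77.9 in CD25+ TRP, could not be told from sampling. By rearrangement, 84 lay above the 81.5 of CD73+ Treg of cluster 9 and below the 85.8 of DP. With TRAV copies as deposited, no rearrangement was on more than 2 of the 86 cells of CD73- Treg of cluster 3. However, 4 of these cells, with the CDR3 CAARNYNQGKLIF, had 1 nucleotide sequence. They counted as 2 rearrangements by TRAV copy alone, which is uncertain. The most frequent was on 16 of 368 cells of CD73+ Treg of cluster 3 and on 4 of 137 cells of CD73- Treg of other clusters. These maxima depend on the number of cells in each set.

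**Figure D3:**
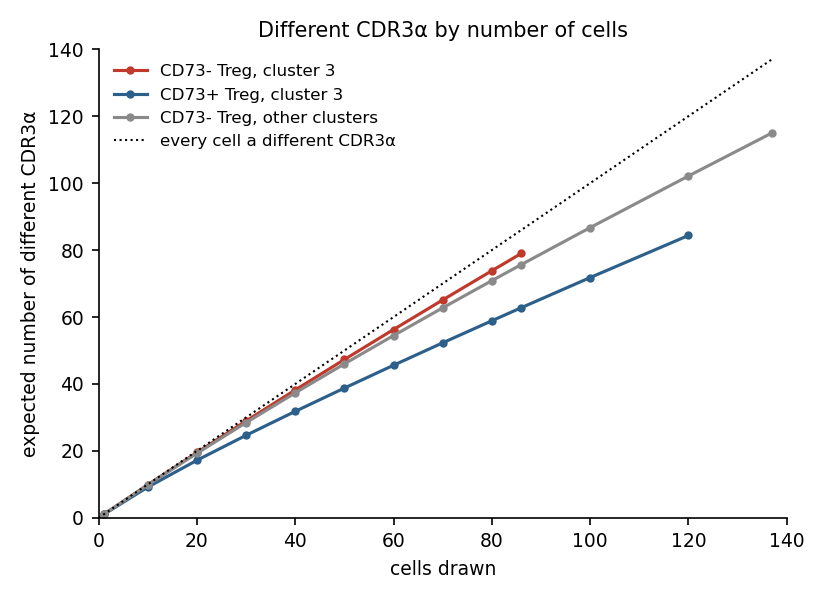
Expected number of different CDR3α against the number of cells drawn, for CD73- Treg of cluster 3, CD73+ Treg of cluster 3 and CD73- Treg of other clusters; the dotted line marks every cell having its own CDR3α. At 86 cells the curves reach 79 in CD73- Treg of cluster 3, 62.8 in CD73+ Treg of cluster 3 and 75.7 in CD73- Treg of other clusters.

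The most frequent CDR3 of CD73- Treg of cluster 3 was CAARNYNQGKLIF, on TRAJ23 (chr14:54196081-54196140), in 4 of 86 cells (4.65%, 1.28 to 11.5). It was in 25 CD73+ Treg cells of cluster 3 (6.79%, 4.44 to 9.87) and in 1 CD73- Treg cell of other clusters (0.730%). Outside these sets it was in 3.77% of CD73+ Treg of other clusters, 3.11% of Foxp3lo TRP, 2.13% of CD25+ TRP, 0.973% of CD4 SP and 0.0790% of DP cells. Of these 8 sets DP had the lowest share, followed by CD73- Treg of other clusters, whose share rests on 1 cell, and CD4 SP. In the 4 CD73- Treg cells of cluster 3 the CDR3 had 1 nucleotide sequence, on TRAV14-2 in 2 cells and on TRAV14N-2 in 2, which is shown because no base of it lies outside the germline segments.
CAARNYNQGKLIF: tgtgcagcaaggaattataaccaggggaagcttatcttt
In CD73+ Treg of cluster 3 the same CDR3 was built from 8 nucleotide sequences, and the sequence above was in 12 cells with TRAV14-2 and in 3 with TRAV14N-2.

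The other repeated CDR3 of the CD73- Treg of cluster 3 were each in 2 cells. These were a 15-residue CDR3 on TRAJ22, CAASADYSNNRLTL on TRAJ7, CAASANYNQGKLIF on TRAJ23 and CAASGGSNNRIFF on TRAJ31. In each case the 2 cells had different nucleotide sequences, which encode the same residues through different joins. The joins of 3 of them are shown for that reason, with capitals as above.
TRAJ22 CDR3, first cell: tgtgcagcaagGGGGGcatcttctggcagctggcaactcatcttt
TRAJ22 CDR3, second cell: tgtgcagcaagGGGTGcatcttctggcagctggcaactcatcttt
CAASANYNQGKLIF, first cell: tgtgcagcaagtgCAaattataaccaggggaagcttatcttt
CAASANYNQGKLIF, second cell: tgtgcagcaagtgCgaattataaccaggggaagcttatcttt
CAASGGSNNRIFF, first cell: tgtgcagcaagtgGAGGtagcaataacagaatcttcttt
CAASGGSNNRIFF, second cell: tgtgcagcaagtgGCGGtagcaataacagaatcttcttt
Thus 4 of the 5 repeated CDR3 in CD73- Treg of cluster 3 came from several nucleotide sequences, against 22 of 33 in CD73+ Treg of cluster 3 and 8 of 12 in CD73- Treg of other clusters. The TRAJ22 CDR3 was in 0 of 368 CD73+ Treg cells of cluster 3, which allows up to 0.997%, and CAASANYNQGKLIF and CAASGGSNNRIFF were in 1 each.

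The CDR3 sequences of the CD73- Treg of cluster 3 were shared with all 4 of the DP, CD4 SP, CD25+ TRP and Foxp3lo TRP populations. Over all cells, 39 of 86 carried a CDR3 also found in CD25+ TRP (45.3%, 34.6 to 56.5) and 38 a CDR3 also found in Foxp3lo TRP (44.2%, 33.5 to 55.3). To set populations of unequal size side by side, the share of cells whose CDR3 also occurs in another population was also computed for 689 cells of that population. This is an expected value, and its interval covers the number of cells in the Treg set only. For CD73- Treg of cluster 3 this share was 15.9% with DP (8.88 to 25.3), 20.1% with CD4 SP (12.3 to 30.2), 31.9% with CD25+ TRP (22.3 to 42.9) and 40.6% with Foxp3lo TRP (30.1 to 51.7). It was 27.4% with DP (22.9 to 32.3), 20.1% with CD4 SP, 48.8% with CD25+ TRP (43.6 to 54.1) and 42.3% with Foxp3lo TRP for CD73+ Treg of cluster 3. For CD73- Treg of other clusters it was 21.7% with DP, 20.5% with CD4 SP, 39.0% with CD25+ TRP and 41.4% with Foxp3lo TRP. The intervals for CD25+ TRP and Foxp3lo TRP overlapped in CD73- Treg of cluster 3, so the order of these populations could not be told. The 3 Treg sets lay within 2 percentage points of each other in what they shared with CD4 SP, and likewise with Foxp3lo TRP, and further apart in what they shared with DP and CD25+ TRP. Without the 10 CDR3 most frequent in the series this pattern changed. Cells with those CDR3 were left out of the Treg sets and of the other populations alike. A population with fewer than 689 cells left entered whole, so these shares rest on fewer cells than those above. Sharing with DP was then 11.6% in CD73- Treg of cluster 3, 14.1% in CD73+ Treg of cluster 3 and 14.5% in CD73- Treg of other clusters. With CD25+ TRP it was 28.2% in CD73- Treg of cluster 3, 31.9% in CD73+ Treg of cluster 3 and 32.4% in CD73- Treg of other clusters. With Foxp3lo TRP it was 39.2% in CD73- Treg of cluster 3, 25% in CD73+ Treg of cluster 3 and 35.8% in CD73- Treg of other clusters.

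Sharing with CD73+ Treg outside cluster 3 differed most. A CDR3 found among those 689 cells was present in 18 of 86 CD73- Treg cells of cluster 3 (20.9%, 12.9 to 31.0), 49.2% of CD73+ Treg of cluster 3 (44.0 to 54.4) and 36.5% of CD73- Treg of other clusters (28.4 to 45.1). The interval of CD73- Treg of cluster 3 lay below that of CD73+ Treg of cluster 3 and overlapped with that of CD73- Treg of other clusters. CD73+ Treg cells inside and outside cluster 3 share a hashtag and a sort. Leaving out the same 10 CDR3, the shares were 13.9% in CD73- Treg of cluster 3, 30.2% in CD73+ Treg of cluster 3 and 27.5% in CD73- Treg of other clusters. By rearrangement, they were 9.30% in CD73- Treg of cluster 3 (8 cells, 4.10 to 17.5), 31.0% in CD73+ Treg of cluster 3 (26.3 to 36.0) and 16.8% in CD73- Treg of other clusters (11.0 to 24.1).

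**Figure D4:**
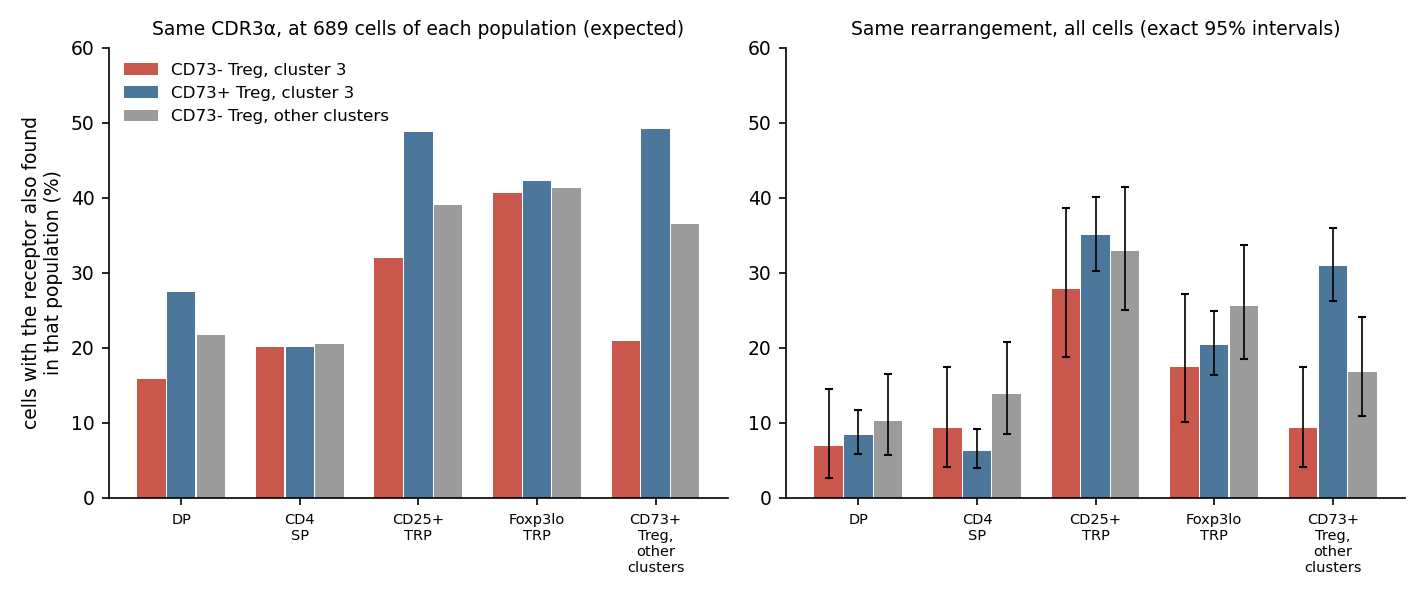
Share of cells of CD73- Treg of cluster 3, CD73+ Treg of cluster 3 and CD73- Treg of other clusters whose receptor also occurs in each population on the x axis, by CDR3α at 689 cells of that population (left) and by rearrangement over all its cells with exact 95% intervals (right). With CD73+ Treg of other clusters, the CDR3α share is 20.9% in CD73- Treg of cluster 3 and 49.2% in CD73+ Treg of cluster 3.

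Directly between the Treg sets, 19 of 86 CD73- Treg cells of cluster 3 (22.1%, 13.9 to 32.3) carried a CDR3 also found in CD73+ Treg of cluster 3. The 13 CDR3 sequences concerned were 16.5% of those of CD73- Treg of cluster 3 and 5.83% of those of CD73+ Treg of cluster 3. A CDR3 of CD73- Treg of other clusters was present in 12 of the 86 cells (14.0%, 7.42 to 23.1). Exactly the same rearrangement was found in another cell of the series for 35 of 86 CD73- Treg cells of cluster 3 (40.7%, 30.2 to 51.8), 47.3% of CD73+ Treg of cluster 3 (42.1 to 52.5) and 40.9% of CD73- Treg of other clusters (32.6 to 49.6). For CD73- Treg of cluster 3, the rearrangement was in CD25+ TRP for 24 cells (27.9%), in Foxp3lo TRP for 15 (17.4%) and in CD73+ Treg of cluster 3 for 11 (12.8%), from populations of 1783, 804 and 368 cells. A CDR3 found in no other cell was present in 31 of 86 CD73- Treg cells of cluster 3 (36.0%, 26.0 to 47.1), 30.4% of CD73+ Treg of cluster 3 and 36.5% of CD73- Treg of other clusters. None of the 86 cells had a CDR3 that was shared with other Treg cells and absent from the 4 other populations, and 0 of 86 allows up to 3.49%. There were 11 such cells of 368 in CD73+ Treg of cluster 3 (2.99%) and 5 of 137 in CD73- Treg of other clusters (3.65%).

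The index of Morisita, which is near 1 for equal repertoires whatever the number of cells and weights frequent sequences most, did not follow the order of the shares. CD73- Treg of cluster 3 had 0.677 with CD73+ Treg of other clusters, 0.667 with CD25+ TRP, 0.617 with Foxp3lo TRP, 0.598 with CD73- Treg of other clusters and 0.479 with CD73+ Treg of cluster 3. It had 0.182 with DP and 0.163 with CD4 SP. CD73+ Treg of cluster 3 had 0.835 with CD73+ Treg of other clusters, and CD73- Treg of other clusters had 0.711 with them. The index divides by the repeats within each set, and CD73- Treg of cluster 3 had 5 repeated CDR3, so these values are imprecise.

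In length and in the residues compared, the CDR3 of CD73- Treg of cluster 3 could not be told from those of the other Treg sets at this depth. Their length was 13.5 ± 1.31 residues (mean ± SD over 86 cells, 10 to 17), against 13.3 ± 1.17 in CD73+ Treg of cluster 3 (n = 368 cells) and 13.3 ± 1.29 in CD73- Treg of other clusters (n = 137 cells). The fourth residue, at the end of the TRAV part, was serine in 55.8% of CD73- Treg of cluster 3 (44.7 to 66.5), 62.2% of CD73+ Treg of cluster 3 and 56.9% of CD73- Treg of other clusters. It was arginine, a positively charged residue, in 26.7% of CD73- Treg of cluster 3 (23 cells, 17.8 to 37.4), 19.3% of CD73+ Treg of cluster 3 (15.4 to 23.7), 17.5% of CD73- Treg of other clusters (11.6 to 24.9) and 9.73% of CD4 SP (8.42 to 11.2). Among the other populations it was 16.7% in Foxp3lo TRP (14.2 to 19.4), 13.3% in CD25+ TRP (11.8 to 15.02) and 13.0% in DP (11.2 to 15.01), so that CD4 SP was the lowest. The interval of CD73- Treg of cluster 3 overlapped with those of both Treg sets and of Foxp3lo TRP and lay above those of CD25+ TRP, DP and CD4 SP. Those of CD73+ Treg of cluster 3 and CD73- Treg of other clusters also lay above that of CD4 SP. With each different CDR3 counted once, arginine was at 24.1% in CD73- Treg of cluster 3 (15.1 to 35.0) and 17.0% in CD73+ Treg of cluster 3 (12.3 to 22.6). It was then at 17.4% in CD73- Treg of other clusters (11.0 to 25.6) and 11.4% in CD4 SP (9.45 to 13.6). CD25+ TRP had 14.7% (12.6 to 17.0) and DP 13.2% (11.2 to 15.3). Counted so, the interval of CD73- Treg of cluster 3 stayed above that of CD4 SP but overlapped with those of CD25+ TRP and DP. The intervals of CD73+ Treg of cluster 3 and CD73- Treg of other clusters then overlapped with that of CD4 SP. Bases of the join outside both germline ends averaged 3.13 per CD73- Treg cell of cluster 3, 2.91 per CD73+ Treg cell of cluster 3 and 3.04 per CD73- Treg cell of other clusters. A join with none was carried by 8.14% of CD73- Treg of cluster 3 (7 cells, 3.34 to 16.1), 12.8% of CD73+ Treg of cluster 3 (9.56 to 16.7) and 15.3% of CD73- Treg of other clusters (9.75 to 22.5).

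In summed expression, CD73- Treg of cluster 3 had the smallest difference from CD73+ Treg of cluster 3 among the sets compared. UMI counts were summed per set, 605934 in CD73- Treg of cluster 3, 3146352 in CD73+ Treg of cluster 3 and 756266 in CD73- Treg of other clusters, and scaled to each set's total (CPM). Over the 2780 gene rows at 50 CPM or more in at least 1 of the sets, the root-mean-square log2 ratio of CD73- over CD73+ Treg of cluster 3 was 0.31. Counting error alone gives 0.21, and 0.23 remains when its square is taken off. Against CD73- Treg of other clusters it was 0.43 over 2935 rows, with 0.26 from counting and 0.35 beyond it. Beyond counting, the values were 0.33 against Foxp3lo TRP of cluster 3, 0.40 against CD73- Treg of cluster 0, 0.42 against Foxp3lo TRP of cluster 0, 0.55 against CD73+ Treg of clusters other than 3 and 9 and 0.88 against CD73+ Treg of cluster 9. The part from counting covers UMIs and not the draw of cells, which adds more in a small set. CD73+ Treg of cluster 3 had 1045 cells, against 244 in CD73- Treg of other clusters. CD73- Treg of cluster 0 had 103 and Foxp3lo TRP of cluster 3 had 73. How far set size shaped this order was not tested. Clusters were drawn from expression, so distances across clusters are a description of that choice. The comparison within cluster 3 crosses 2 hashtags of the same loaded pool.

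**Figure D5:**
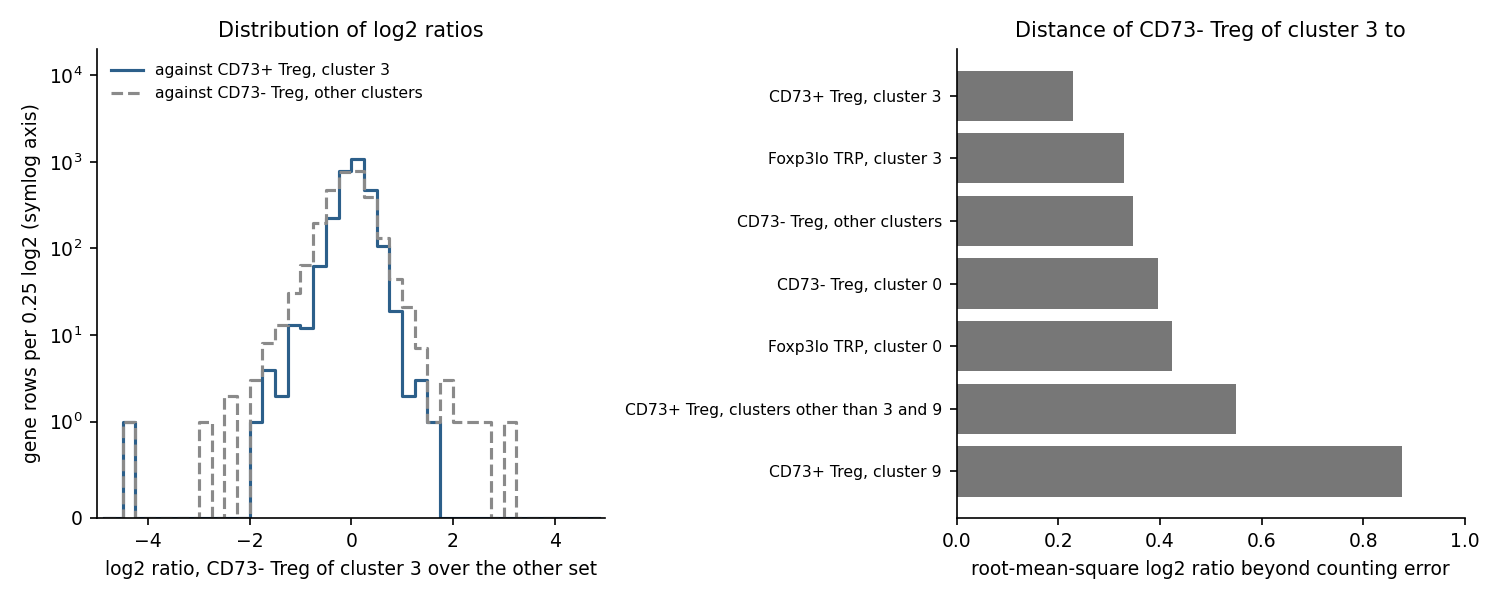
Left, number of gene rows in bins of the log2 ratio of CD73- Treg of cluster 3 over CD73+ Treg of cluster 3 (solid) or over CD73- Treg of other clusters (dashed), on an axis that is logarithmic above 1. Right, root-mean-square log2 ratio beyond counting error between CD73- Treg of cluster 3 and 7 other sets, lowest at 0.23 for CD73+ Treg of cluster 3 and highest at 0.88 for CD73+ Treg of cluster 9.

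Few gene rows differed by over 2-fold within cluster 3. Of 2780 rows, 6 were over 2-fold higher (0.216%) and 21 over 2-fold lower (0.755%) in CD73- than in CD73+ Treg of cluster 3. Against CD73- Treg of other clusters, 36 of 2935 rows were over 2-fold higher (1.23%) and 59 over 2-fold lower (2.01%) in CD73- Treg of cluster 3. These counts rest on the limit and scale used, since the 27 rows within cluster 3 became 119 at 20 CPM or more and 8 from the authors' normalized values. Over all 2780 rows the median log2 ratio was 0.07 against CD73+ Treg of cluster 3, and over all 2935 rows it was -0.02 against CD73- Treg of other clusters. The 21 lower rows had 3.30 to 101 CPM in CD73- Treg of cluster 3 (2 to 61 UMIs) and 50.9 to 209 CPM in CD73+ Treg of cluster 3. Of these 21, 9 were also over 2-fold lower in CD73- Treg of other clusters than in CD73+ Treg of cluster 3, and 1 was past 4-fold. The 6 higher rows had 51.2 to 167 CPM in CD73- Treg of cluster 3 and 19.1 to 62.3 CPM in CD73+ Treg of cluster 3, and 2 of them were also over 2-fold higher in CD73- Treg of other clusters. Over all 2884 rows at 50 CPM or more in either set, 37 were over 2-fold lower in CD73- Treg of other clusters than in CD73+ Treg of cluster 3. Another 31 were over 2-fold higher. Both comparisons use the same CD73+ cells, on which the rows were chosen, so the overlaps are not independent.

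A single row stood far below the rest. It had 2 UMIs in CD73- Treg of cluster 3, in 2 of 210 cells (0.952%), 302 UMIs in CD73+ Treg of cluster 3, in 11.1% of cells, and 1 UMI in CD73- Treg of other clusters, in 0.410% of cells. Both CD73- Treg sets thus had it at a few UMIs. Per total UMI the ratio of CD73- to CD73+ Treg of cluster 3 was 0.0344 (exact 95% interval 0.00415 to 0.125). That interval counts each UMI as independent, which UMIs of the same cell are not, so it may be too narrow. With the prior of 1 CPM the row had a log2 ratio of -4.50, while the next lowest row had -1.89 and the highest 1.55. The row was singled out after its values were seen, and the rows as used here give it no name.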

How the data were processed

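Gene expression, hashtag and TCRα-enriched libraries came from the 10x Genomics 5′ kit (v2), per the labels' protocols. Per the submitters' processing notes, the builds were mm10 and GRCm38 and the tools included Seurat 3.1.1 and Cell Ranger 3.1.0. How cells were filtered, doublets treated and hashtags called was not given in the sources used here, and no doublet caller was run.

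The deposited expression matrix holds UMI counts for 14790 gene rows (164 without a UMI) in 12208 cells, each with its own barcode. The deposited second matrix holds natural log values, equal to ln(1 + 10000 × count / cell total) within 6.22e-15, and was used as an alternative. The deposited contig table gives TRAV, TRAJ, CDR3, UMI and read counts for 12771 barcodes, of which 7379 are in the matrix. Population and cluster (0 to 14) were taken from the deposited metadata, whose lines follow the matrix's barcode order. That order was checked on the 6982 cells with 1 productive α chain, and clonotype and CDR3 matched in 6982. The rows carry no gene name, so the planned named genes and marker check could not be given.

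Shares have exact Clopper-Pearson 95% intervals, and for a count of 0 the upper limit of that interval is given. Intervals and this limit cover counting error only. Numbers of different CDR3 at 86 cells and sharing at 689 cells were computed in closed form. Log2 ratios of summed counts used a prior of 1 CPM and rows with at least 50 CPM in either set, and the part from counting was computed by the delta method at the pooled rate, which slightly understates it near that limit. CDR3 bases were compared with GENCODE M21 (GRCm38) TRAV and TRAJ segments. CDR3 sequences named are those on 3 or more CD73- Treg cells of cluster 3, those on TRAJ4 or TRAJ7 there and the TRAJ7 pair. The other repeated CDR3 and the arginine share were chosen after their values were seen. TRAJ segments named are TRAJ4, TRAJ7 and the 5 most used. The cells, lists and rules were chosen with earlier results of these data known. The calculations were tested on simulated data and run in Python 3.11.15 with numpy 2.4.6, scipy 1.17.1 and pandas 2.3.3.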

Additional observations from a re-analysis of the deposited data

How the results depend on the processing

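Of 133 alternative values, 82 stayed within the interval or 1.5 times the count of the value reported and 51 moved. These are shares, counts, medians and root-mean-square values, which have no sign, but the order of CD73- and CD73+ Treg of cluster 3 turned in 3 cases. Foxp3lo TRP sharing was 40.6% in CD73- and 42.3% in CD73+ Treg of cluster 3, and 39.2% in CD73- and 25% in CD73+ Treg without the 10 most frequent CDR3. The TRAJ7 share was 4.65% in CD73- and 18.8% in CD73+ Treg of cluster 3, and 3.80% in CD73- and 1.79% in CD73+ Treg with each different CDR3 once. The last 2 shares come from 86 and 368 cells and were not computed at an equal number, so set size may account for that turn, which was not tested. Detected genes were 1134 in CD73- and 1167 in CD73+ Treg of cluster 3, and 575 in CD73- and 559 in CD73+ Treg at 1000 UMIs. The order against CD73- Treg of other clusters also turned under an alternative for the TRAJ7 share, for sharing with CD4 SP and Foxp3lo TRP and for median depth. With all cells of the other population, CDR3 sharing of CD73- Treg of cluster 3 was 25.6% with DP, 36.0% with CD4 SP, 45.3% with CD25+ TRP and 44.2% with Foxp3lo TRP, the last 2 in the opposite order to that at 689 cells. By nucleotide CDR3 with TRAV and TRAJ gene, it was 4.09% with DP, 4.29% with CD4 SP, 15.3% with CD25+ TRP, 16.2% with Foxp3lo TRP and 9.30% with CD73+ Treg of other clusters. For CD73+ Treg of cluster 3, sharing with all cells was 43.8% with DP, 27.2% with CD4 SP and 58.2% with CD25+ TRP, by nucleotide CDR3 it was 4.79% with DP, 3.46% with CD4 SP, 27.0% with CD25+ TRP, 19.4% with Foxp3lo TRP and 31.0% with CD73+ Treg of other clusters, and without the 10 most frequent CDR3 it was 14.1% with DP, 31.9% with CD25+ TRP and 30.2% with CD73+ Treg of other clusters. For CD73- Treg of other clusters, sharing with all cells was 32.1% with DP, 28.5% with CD4 SP and 51.1% with CD25+ TRP, by nucleotide CDR3 it was 6.11% with DP, 8.94% with CD4 SP, 23.0% with CD25+ TRP, 23.8% with Foxp3lo TRP and 16.8% with CD73+ Treg of other clusters, and without the 10 most frequent CDR3 it was 14.5% with DP and 27.5% with CD73+ Treg of other clusters. Detected genes at 1000 UMIs were 576 in CD73- Treg of other clusters. The TRAJ7 share was 5.07% in CD73+ Treg of cluster 3 with each rearrangement once and 3.48% in CD73- Treg of other clusters with each different CDR3 once. Against CD73+ Treg of cluster 3, the root-mean-square log2 ratio was 0.33 with cells weighted equally, 0.29 from the authors' normalized values, 0.27 with a prior of 10 CPM, 0.40 over rows of at least 20 CPM and 0.32 without the 5% of cells with most UMIs. The 27 rows over 2-fold became 8 from the authors' values, 15 with the prior of 10 CPM and 119 at 20 CPM. Against CD73- Treg of other clusters the ratio was 0.38 from the authors' values, 0.37 with the prior of 10 CPM, 0.54 at 20 CPM and 0.41 without the 5% of cells with most UMIs. The 95 rows became 35 from the authors' values, 55 with the prior of 10 CPM and 335 at 20 CPM. More rows with few UMIs enter at 20 CPM, and a larger prior shrinks ratios of low rows. A fixed number of UMIs lowers detected genes, and a stricter definition of a shared receptor lowers sharing. The cause of the other moves was not tested. No paired analysis was possible because the series has 1 pool of mice and 1 sorted sample per population, and no replicate could be left out for the same reason. The 86 chains limit every repertoire value of CD73- Treg of cluster 3, and shares that differ by less than about their intervals could not be told apart at this depth.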
